A study of Mus musculus with 24 samples.

Results

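Livers of JNK1-/- mice taken 28 d after bile duct ligation (BDL) were compared with livers of JNK1-/- mice taken 48 h after the same operation. The comparison used every array titled for these groups, 3 at 28 d and 3 at 48 h, which makes 6 of the 24 arrays in the series, and all 18820 genes with a symbol. Mice labelled JNK1-/- lack the kinase Jnk1 (gene symbol Mapk8) in every cell. The JNK1Δhepa mice set beside them lost it in hepatocytes, where the albumin promoter switches on the Cre that deletes it, and the controls carried the floxed gene without Cre (JNK1f/f). The groups were JNK1-/- BDL 28 d, JNK1-/- BDL 48 h, JNK1Δhepa BDL 28 d and 48 h, control BDL 28 d and 48 h, and control sham 28 d and 48 h, each of 3 arrays of male C57/BL6 liver. Mice of every 28 d group were labelled as 12 weeks old and those of every 48 h group as 8 weeks old. Time after surgery and age therefore moved together, and the sham-operated controls carried the same age difference. No sham-operated JNK1-/- mice were analysed here, and the JNK1-/- line was bought in while the floxed line came from another laboratory, so line and genotype cannot be told apart.

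Tying off the common bile duct keeps bile in the liver. Bile acids then injure hepatocytes, and within days the liver mounts an acute phase response, draws in neutrophils and starts cell division. Over weeks bile ducts multiply, macrophages take up debris, and stellate cells turn into myofibroblasts that lay down collagen. Jnk1 answers stress signals by phosphorylating the transcription factor Jun, and it acts in hepatocytes, immune cells and stellate cells.

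Mapk8 was lower in the 6 JNK1-/- livers than in any other. Its log2 intensity was 6.11, 5.18 and 5.61 at 28 d, against 5.33, 6.17 and 6.09 at 48 h, and the 3 control BDL 28 d livers had 7.41 to 7.67. The groups of JNK1-/- livers overlapped, with a difference of -0.23 ± 0.22 (SE, adjusted p = 0.64). Whether its probes lie inside the deleted stretch is not given in the sources used here. The related kinase Mapk9 (Jnk2) had 8.97 to 9.16 at 28 d and 8.82 to 8.95 at 48 h, and Mapk10 (Jnk3) lay between 3.01 and 3.24 on all 6 arrays. Mapk8 went against 2 other labels: the array of JNK1Δhepa BDL 28 d replicate 1 had 7.67, a control level, and the 3 control sham 48 h arrays had 6.67 to 6.93, below the other controls. Apart from a count of interferon response genes, counts that rest on the first of these are given with and without it. Those that rest on the sham arrays are also given without them where a model could be fitted. Among the JNK1-/- arrays, replicate 1 at 48 h deviated most from its group, by a mean of 0.260 log2 units over genes, against 0.168 and 0.197 for its groupmates. The array medians were 5.83 to 5.98 at 28 d, above the 5.75 to 5.79 at 48 h.

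Between 48 h and 28 d of ligation, 534 of 18820 genes (2.84%) differed in JNK1-/- liver at an adjusted p under 0.05 in the limma model, 365 higher (1.94%) and 169 lower (0.898%) at 28 d. Of these, 103 higher and 35 lower genes differed at least 2-fold, and 3182 genes had an unadjusted p under 0.05. The groups of 3 arrays did not overlap for 529 of the 534, against 21.6% of all genes (10.3% with 28 d higher and 11.3% with 28 d lower). The higher genes held carboxylesterases, transporters and enzymes of fat synthesis and uptake, and the lower genes held major urinary proteins, serum amyloid A proteins and other genes that male liver makes in quantity. The direction of the split rested on the scale: with each array centred on its own median, 190 genes were called higher and 476 lower, and the median of all genes moved to -0.15 from -0.02. Leaving out arrays also moved the count, which was 227 without replicate 1, 228 without replicate 2 and 407 without replicate 3 of the 28 d group, and 659, 246 and 384 without replicates 1, 2 and 3 of the 48 h group. A model of the 6 arrays alone called 98 genes, 66 higher and 32 lower. Without the control sham 48 h arrays the model called 388, and without the array labelled JNK1Δhepa BDL 28 d replicate 1 it called 540.

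**Figure D1:**
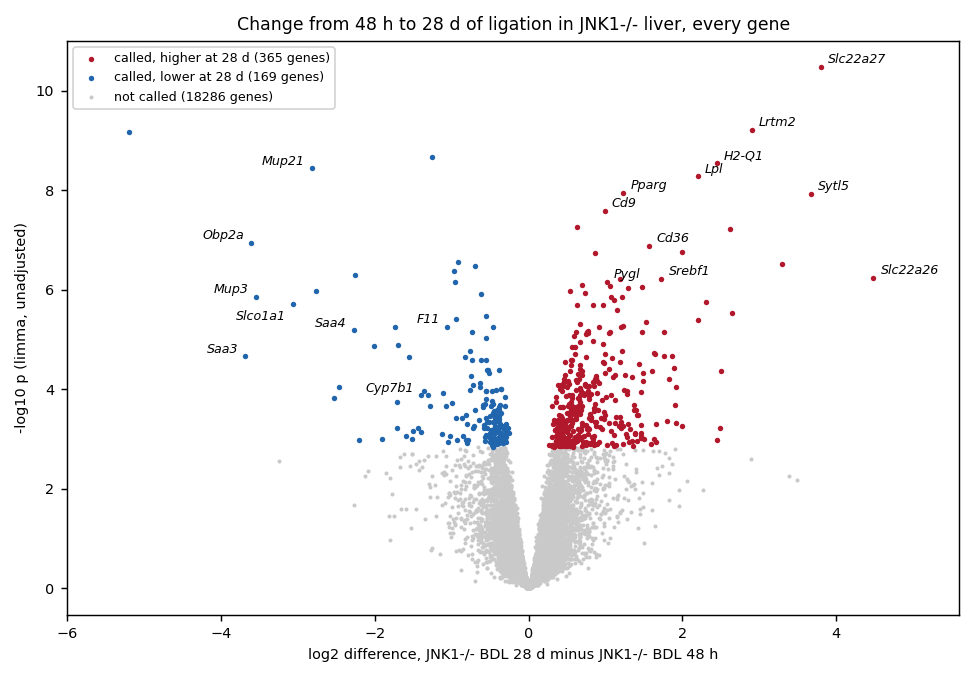
Each point is 1 of 18820 genes, by its log2 difference (JNK1-/- BDL 28 d minus JNK1-/- BDL 48 h, horizontal) and the negative log10 of its unadjusted limma p (vertical). Red points are the 365 genes called higher and blue points the 169 called lower at 28 d, and the names mark genes described in the text.

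The organic anion transporter genes Slc22a26 and Slc22a27, neighbours on chromosome 19, showed the largest differences among the named genes called higher, at 4.48 ± 0.62 and 3.80 ± 0.29 on the log2 scale (SE, adjusted p = 0.000486 and 6.24e-07). Slc22a27 had log2 intensities of 8.28, 7.88 and 7.18 at 28 d, against 3.9998, 3.98 and 3.96 at 48 h and 3.60 to 4.14 in the 6 sham livers. Slc22a26 had 9.45, 9.06 and 9.17 at 28 d, against 3.91, 4.67 and 5.67 at 48 h and 3.68 to 5.17 in sham livers. At 48 h Slc22a27 lay within the sham range and Slc22a26 within or, in replicate 3, just above it, and at 28 d both lay far above it. As the 2 genes are related, a probe set may also read the other gene, and the table gives no detection call, so a low intensity is only low. In the JNK1Δhepa and control ligated livers Slc22a26 already lay between 6.53 and 9.66 at 48 h, while Slc22a27 had 6.603 to 8.04 at 28 d, against 4.49 to 5.63 at 48 h, apart as in JNK1-/- liver.

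The start regions of this pair are shown because the genes are neighbours with starts 163 kb apart, and moved together. Each window holds 300 bases around the gene's start, most of them upstream (RefSeq, GRCm38.p6), at chr19:7802618-7802917 and chr19:7965978-7966277, both on the minus strand and written 5′ to 3′ along the gene. Capitals mark matches to TTCNNNGAA, the STAT binding motif, on either strand.
Slc22a26: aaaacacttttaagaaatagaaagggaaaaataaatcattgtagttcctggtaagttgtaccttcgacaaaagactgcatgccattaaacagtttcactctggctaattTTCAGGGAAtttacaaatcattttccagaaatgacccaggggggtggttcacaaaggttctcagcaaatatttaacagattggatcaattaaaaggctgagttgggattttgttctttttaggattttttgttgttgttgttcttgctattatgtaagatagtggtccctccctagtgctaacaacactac
Slc22a27: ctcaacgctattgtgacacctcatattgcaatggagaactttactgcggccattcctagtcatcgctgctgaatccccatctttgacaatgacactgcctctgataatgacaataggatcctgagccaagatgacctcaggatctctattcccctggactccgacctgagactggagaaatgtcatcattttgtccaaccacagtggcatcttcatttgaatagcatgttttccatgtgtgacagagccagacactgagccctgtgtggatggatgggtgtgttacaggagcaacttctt
Slc22a26 held 1 match and Slc22a27 held 0, where 8.3% of all 32851 promoter windows held at least 1. The windows shared 50.3% of their aligned bases, near the 46.6% of Slc22a26 and the unrelated Mup21.

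The next genes in size were Sytl5, Ces1g, Lrtm2 and Pls1. Sytl5, which encodes a synaptotagmin-like partner of Rab proteins, had 8.57, 8.28 and 8.68 at 28 d, against 4.28, 5.22 and 5.02 at 48 h (difference 3.67 ± 0.39, adjusted p = 2.48e-05), and a second probe set of the gene differed by 3.20. Ces1g, a carboxylesterase that breaks down lipid esters, had 11.82, 11.11 and 10.72 at 28 d, against 6.20, 8.72 and 8.85 at 48 h (3.30 ± 0.43, adjusted p = 0.000313). All 12 other ligated livers had Ces1g between 11.29 and 11.93 and the sham livers between 10.78 and 11.30, so the low values belonged to the 48 h JNK1-/- livers. Lrtm2 had 7.45, 7.72 and 6.86 at 28 d, against 4.39, 4.32 and 4.61 at 48 h (2.90 ± 0.26, adjusted p = 4.33e-06), and sham livers stayed between 4.24 and 4.49. Pls1, an actin-bundling protein of microvilli, had 8.76, 8.73 and 8.62 at 28 d, against 5.14, 6.36 and 6.66 at 48 h (2.65 ± 0.41, adjusted p = 0.0012).

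The remaining 8 of the 14 leading genes rose by 2.20 to 2.62 log2 units. They were the vault RNA Vaultrc5 (2.62), the methyltransferase Inmt (2.50), the lipogenic regulator Thrsp (2.49), the water channel Aqp8 (2.45), the class I histocompatibility gene H2-Q1 (2.45), Adam11 (2.31), the actin regulator Cap2 (2.21) and lipoprotein lipase Lpl (2.20). H2-Q1, which has close relatives that its probes may also read, had 9.46, 9.08 and 8.92 at 28 d, against 6.24, 6.85 and 7.03 at 48 h, and Adam11 had 8.75, 8.86 and 8.77, against 6.46, 6.33 and 6.67. Both pairs of groups were well apart. Aqp8 was less secure: its adjusted p of 0.042 passed 0.05 when any of 5 of the 6 JNK1-/- arrays was left out, up to 0.133, and Thrsp (0.0313) lost its call without 4 of them, up to 0.145. Of the 28 leading genes in both directions, 22 kept their call without any single JNK1-/- array and none turned its direction.

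**Figure D2:**
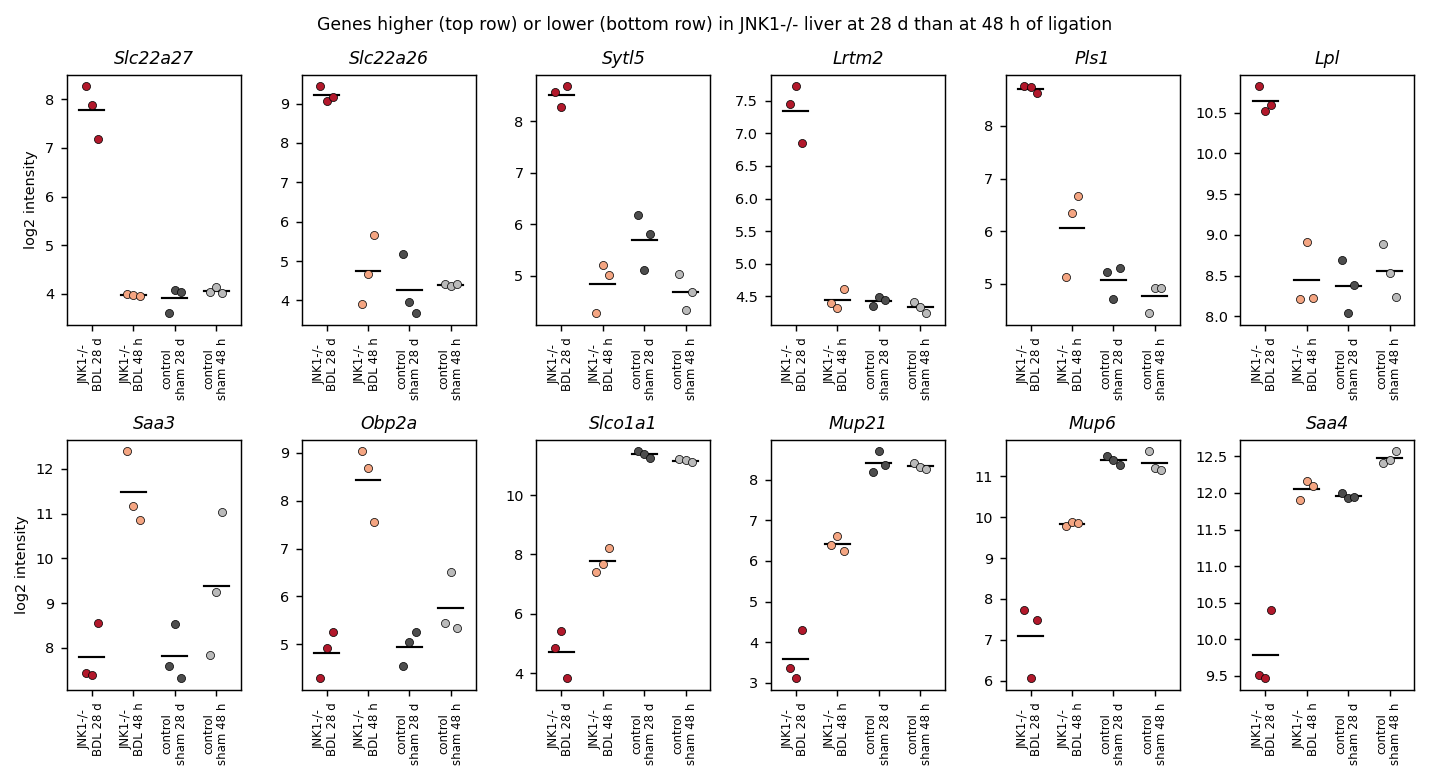
Log2 intensity of 12 genes (vertical) in each array of JNK1-/- BDL 28 d, JNK1-/- BDL 48 h, control sham 28 d and control sham 48 h, with a line at each mean of 3. The upper row shows genes higher and the lower row genes lower at 28 d in JNK1-/- liver, and in every panel the JNK1-/- groups do not overlap.

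Of the named genes that fell, with pseudogenes left out, Saa3 and the lipocalin gene Obp2a had the largest differences. Saa3, an acute phase apolipoprotein, had 7.43, 7.40 and 8.55 at 28 d, against 12.39, 11.18 and 10.86 at 48 h (-3.68 ± 0.66, adjusted p = 0.00481). Its relative Saa4 had 9.50, 9.46 and 10.39 at 28 d, against 11.90, 12.17 and 12.09 at 48 h (-2.27 ± 0.37, adjusted p = 0.00208). Saa3 at 28 d lay within the wide range of 7.32 to 11.04 in sham livers of both times, and so did replicate 3 at 48 h. Saa4 was not above the sham range of 11.94 to 12.57 at 48 h and lay below it at 28 d. Obp2a, a lipocalin that binds odorants, had 4.28, 4.92 and 5.26 at 28 d, against 9.04, 8.69 and 7.55 at 48 h (-3.61 ± 0.45, adjusted p = 0.000167), and stayed at 4.12 to 5.71 in all 12 other ligated livers. The pseudogene Serpina4-ps1, named after its values were seen, fell by 5.198 on the log2 scale, with 3.89, 4.65 and 4.03 at 28 d against 10.45, 8.88 and 8.83 at 48 h (adjusted p = 4.33e-06).

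Cyp17a1, Asic5 and Slc8a1 had higher values in JNK1-/- liver at 48 h than in any JNK1Δhepa or control ligated liver. Cyp17a1, a P450 of steroid hormone synthesis, had 8.29, 8.04 and 9.70 at 28 d, against 12.20, 11.06 and 10.16 at 48 h (-2.47 ± 0.50, adjusted p = 0.0109). The other ligated livers had Cyp17a1 between 7.64 and 9.57. Asic5, a bile acid-sensitive ion channel, had 6.84, 7.15 and 6.23 at 28 d, against 9.99, 7.72 and 8.55 at 48 h (-2.01 ± 0.35, adjusted p = 0.00341) and 4.83 to 5.64 in the other ligated livers. Slc8a1, a sodium-calcium exchanger, had 4.43, 5.73 and 5.03 at 28 d, against 7.07, 7.44 and 7.43 at 48 h (-2.25 ± 0.31, adjusted p = 0.000453), but its other probe set differed by 0.05, so the 2 disagree. It fell in sham livers too, to 4.03, 4.81 and 4.28 at 28 d, against 6.05, 7.24 and 5.89 at 48 h (-2.02, adjusted p = 0.00727). The lectin receptor Clec4e (-2.21, adjusted p = 0.0426) and Cyp4a31, a fatty acid hydroxylase (-1.90, 0.0416), each lost the call without 5 of the 6 arrays, with adjusted p up to 0.137 and 0.127. Cyp17a1 lost its call without 28 d replicate 1 or 2 (adjusted p up to 0.0643), and Adgrf1, an adhesion receptor, differed by -1.74 ± 0.28 (0.00191).

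The JNK1-/- livers were also placed against the JNK1Δhepa and control livers of the same time. Of the 365 higher genes, 107 (29.3%) had all 3 JNK1-/- values at 48 h below those of all 6 JNK1Δhepa and control livers ligated for 48 h, against 5.76% of all genes. At 28 d, 55 of the 365 (15.1%) had all 3 values above those of the 6 others, against 3.07% of all genes. Of the 169 lower genes, 64 (37.9%) lay above all others at 48 h and 10 (5.92%) below all others at 28 d, against 6.16% and 1.93% of all genes. Without the array labelled JNK1Δhepa BDL 28 d replicate 1, the shares at 28 d were 15.6% and 5.92%, against 3.45% and 2.23% of all genes. Over all genes the shares were likewise larger at 48 h. The called genes were chosen by the difference between the same 6 arrays, so the shares describe them and test nothing. The control BDL 28 d livers spread more than any other group (median SD 0.187, against 0.115 to 0.139), and its part in the smaller shares at 28 d was not tested.

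Several genes of fat synthesis and uptake rose. Of 25 measured genes of fatty acid and triglyceride synthesis, 8 rose and 0 fell (1.94% and 0.898% of all genes), with a median difference of 0.40, against -0.02 over all genes. The log2 of their summed intensities was 15.21 to 15.40 at 28 d, within the 15.07 to 15.41 of sham livers. At 48 h it was 14.27 to 14.81, below sham livers and below the 15.09 to 15.49 of the other livers ligated for 48 h. The 8 were Lpl, Srebf1 (the transcription factor of lipogenesis), Cd36 (fatty acid uptake), Pparg, Scd1 (desaturase), Acaca (acetyl-CoA carboxylase), Gpam (triglyceride synthesis) and Thrsp. Lpl had 10.83, 10.52 and 10.60 at 28 d, against 8.22, 8.92 and 8.22 at 48 h (2.20 ± 0.22, adjusted p = 1.41e-05). Srebf1 had 9.96, 9.94 and 9.26 at 28 d, against 7.86, 8.08 and 8.04 at 48 h (1.72 ± 0.24, adjusted p = 0.000486). Cd36 had 11.07, 10.73 and 10.89 at 28 d, against 9.71, 9.59 and 8.70 at 48 h (1.56 ± 0.19, adjusted p = 0.000173). The groups were apart for all 3. In sham livers Lpl had 8.04 to 8.89 and Cd36 8.42 to 9.31, below every JNK1-/- value at 28 d. Srebf1 had 8.27 to 9.31 there, above every JNK1-/- value at 48 h. Pparg, a nuclear receptor that drives fat storage, differed by 1.23 ± 0.13 (adjusted p = 2.48e-05) and kept its call under every alternative tried.

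Fasn, the fatty acid synthase, did not pass the test, with 11.81, 11.58 and 11.40 at 28 d, against 8.97, 10.91 and 10.75 at 48 h (1.39 ± 0.38, adjusted p = 0.0544). Replicate 1 at 48 h was the lowest array, as it was for Scd1 (13.19, 13.15 and 13.13 at 28 d, against 10.48, 12.11 and 12.64 at 48 h). Cholesterol synthesis genes showed this still more: 0 of 19 were called, and their median difference of 0.40 turned to -0.15 without that array. Hmgcs1, an early enzyme of the pathway, had 9.48 on it, against 12.11 and 11.88 on its groupmates and 12.12, 11.84 and 11.81 at 28 d. The count of fat synthesis genes called higher was 8 without 48 h replicate 1, with 2 then called lower (351 and 308 of all 18820 genes). It was 5 without 28 d replicate 1 and 6 to 10 without each of the other 4. In the model of the 6 JNK1-/- arrays alone it was 3 (Lpl, Srebf1 and Pparg). The median of the list was 0.68 without 28 d replicate 2. Scd1 lost its call without any of the 3 arrays at 28 d (adjusted p up to 0.0793), and Gpam without 28 d replicate 1 (0.0871). The lipid droplet proteins of the list were not called: Plin2 differed by -0.45 (adjusted p = 0.317) and Cidec by -1.43 (0.0867).

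**Figure D3:**
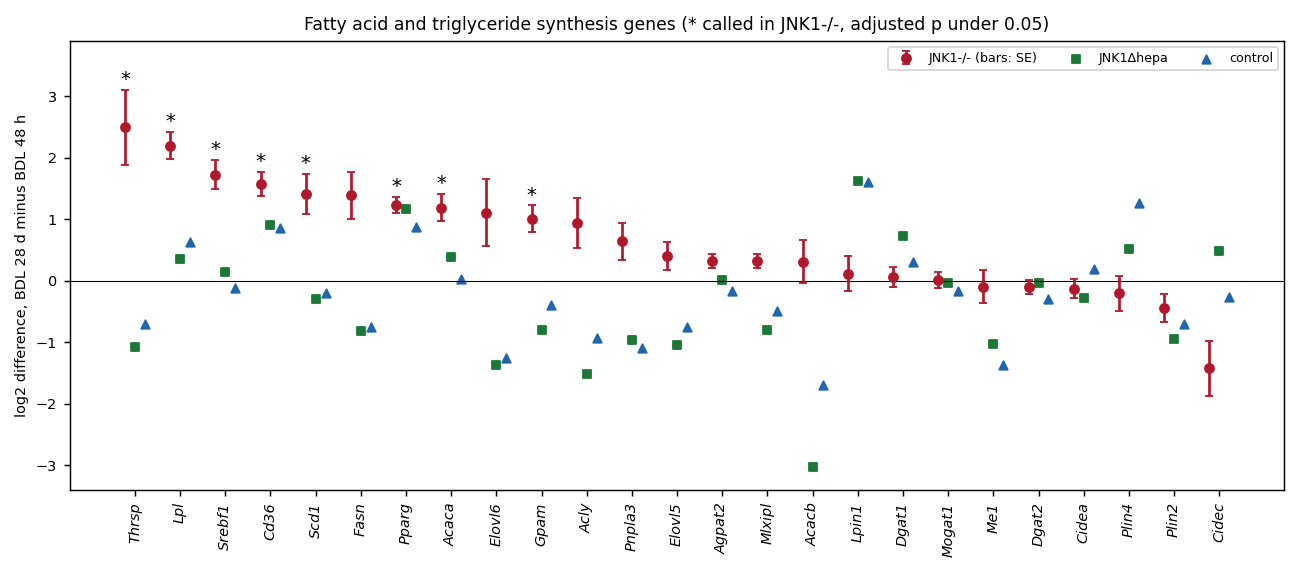
Log2 difference between BDL 28 d and BDL 48 h (vertical) for 25 genes of fatty acid and triglyceride synthesis, in order of the JNK1-/- value. Red circles with SE bars are JNK1-/-, green squares JNK1Δhepa and blue triangles control livers, and stars mark the 8 genes called in JNK1-/- liver, of which Thrsp, Scd1 and Gpam are below 0 in both other genotypes.

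Male-biased liver genes, which growth hormone pulses keep high in males, held several that fell. Of 21 measured, 0 rose and 7 fell (0.898% of all genes fell), with a median difference of -0.82. The 7 were Mup3, Slco1a1, Mup21, Cyp7b1, Cyp2u1, Cyp2d9 and C8b. In the model of the 6 JNK1-/- arrays alone Mup3, Cyp2d9 and C8b lost the call, and Hsd3b5 of the same list gained it. Mup3, a major urinary protein that carries pheromones, had 8.33, 7.42 and 10.40 at 28 d, against 12.18, 12.31 and 12.30 at 48 h and 12.63 to 12.73 in sham livers (-3.55 ± 0.52, adjusted p = 0.000711). Mup21 had 3.37, 3.10 and 4.31 at 28 d, against 6.39, 6.61 and 6.23 at 48 h and 8.20 to 8.70 in sham livers (-2.82 ± 0.28, adjusted p = 1.13e-05). Slco1a1, an uptake transporter for bile acids and steroids, had 4.86, 5.42 and 3.83 at 28 d, against 7.41, 7.68 and 8.21 at 48 h and 11.10 to 11.48 in sham livers (-3.06 ± 0.46, adjusted p = 0.0009). For each of the 3, the 28 d livers were lowest, the 48 h livers between and the sham livers highest, with no overlap. All 3 also fell in the other ligated livers, Mup3 by 5.87 in JNK1Δhepa and 4.91 in control, Slco1a1 by 3.57 and 4.64, and Mup21 by 2.54 and 3.46 log2 units.

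The Mup genes form a cluster of related genes, so a probe set may also read its relatives. The start windows of Mup3 and Mup21 are shown, at chr4:62087268-62087567 for Mup3 and chr4:62150792-62151091 for Mup21 (RefSeq, GRCm38.p6, minus strand). Their likeness does not show what a probe set reads. Capitals mark TATATAA, a form of the TATA box that was looked for after the sequences were seen, on either strand.
Mup3: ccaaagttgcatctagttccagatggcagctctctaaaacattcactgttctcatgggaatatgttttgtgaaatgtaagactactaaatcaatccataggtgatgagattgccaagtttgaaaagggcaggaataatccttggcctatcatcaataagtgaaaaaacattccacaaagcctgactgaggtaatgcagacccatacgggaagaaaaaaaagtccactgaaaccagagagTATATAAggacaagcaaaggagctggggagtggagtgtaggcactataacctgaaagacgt
Mup21: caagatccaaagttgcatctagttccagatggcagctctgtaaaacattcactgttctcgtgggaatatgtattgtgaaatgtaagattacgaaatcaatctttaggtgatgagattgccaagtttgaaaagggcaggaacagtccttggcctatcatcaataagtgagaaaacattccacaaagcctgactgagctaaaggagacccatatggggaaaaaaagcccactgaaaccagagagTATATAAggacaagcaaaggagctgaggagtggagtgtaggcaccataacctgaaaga
Both held 1 match, against 3.24% of all windows, and 90.5% of their aligned bases were identical. A further member, Mup6, had 7.74, 6.05 and 7.47 at 28 d, against 9.78, 9.89 and 9.86 at 48 h (-2.76 ± 0.40, adjusted p = 0.000628).

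Hsd3b5 and Elovl3 of the male-biased list did not pass the test. Hsd3b5, a steroid dehydrogenase, was at 3.78, 3.43 and 3.50 at 28 d, against 5.03, 4.58 and 4.54 at 48 h, and Elovl3, a fatty acid elongase, at 6.001, 4.995 and 5.70, against 7.03, 7.46 and 6.99. The groups did not overlap, with adjusted p of 0.54 and 0.22. In the model of the 6 JNK1-/- arrays alone Hsd3b5 was called. The main model shares 1 estimate of the spread over all groups. The other livers ligated for 48 h ran from 4.16 to 9.39 for Hsd3b5 and from 6.87 to 10.64 for Elovl3. Sham livers had 11.58 to 12.05 for Hsd3b5 and 11.95 to 12.51 for Elovl3, so both genes were already far below sham at 48 h. Of the 21, 4 were called lower without 28 d replicate 1 or 3, and 5 or 6 without each of the other 4 arrays. The female-biased list had 1 gene higher and 1 lower of 14 (Prom1 and Cyp17a1), against 1.94% and 0.898% of all genes. Sult2a8, a sulfotransferase of mouse liver that acts on bile acids, had 4.85, 4.84 and 4.87 at 28 d, against 7.84, 6.74 and 7.56 at 48 h (-2.52 ± 0.54, adjusted p = 0.0148), and lost its call without 28 d replicate 1 or 2 (adjusted p up to 0.0529).

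Of 16 enzymes of bile acid synthesis, 1 rose and 1 fell (1.94% and 0.898% of all genes). Cyp7b1, which hydroxylates oxysterols in the alternative pathway, had 7.78, 7.74 and 7.69 at 28 d, against 9.37, 8.86 and 9.16 at 48 h (-1.39 ± 0.29, adjusted p = 0.0135), and sham livers had 10.81 to 11.82. Akr1d1, the steroid reductase of the shared steps, differed by 0.88 ± 0.17 (adjusted p = 0.0085, and 0.0515 without 28 d replicate 1). Cyp7a1, the rate-limiting enzyme of the classical pathway, had 11.70, 11.54 and 10.64 at 28 d, against 10.68, 5.48 and 7.26 at 48 h. The 48 h arrays disagreed so widely that its difference of 3.49 ± 1.15 was not called (adjusted p = 0.11). Of 22 transporters, the basolateral exporters Abcc3 (0.53 ± 0.11, adjusted p = 0.0106) and Abcc4 (1.196 ± 0.28, 0.0278) rose and Slco1a1 fell, and in the model of the 6 arrays alone 0 rose. Abcc4 had 7.63, 6.94 and 6.36 at 28 d, against 5.68, 5.97 and 5.69 at 48 h, and was not called without any of 5 arrays (up to 0.143). With each array centred on its median, neither exporter was called. The canalicular export pump Abcb11 (0.19, adjusted p = 0.765) and the uptake transporter Slc10a1 (-0.13, 0.538) did not pass the test.

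Of 14 measured neutrophil genes, 0 rose and 4 fell (0.898% of all genes fell), with a median difference of -0.73. Here, as for every cell type in whole liver, fewer cells and less RNA per cell cannot be told apart. Cxcr2, the chemokine receptor of neutrophils, had 5.29, 5.37 and 5.30 at 28 d, against 6.48, 7.09 and 6.71 at 48 h and 4.03 to 5.22 in sham livers (-1.44 ± 0.35, adjusted p = 0.0313). Retnlg had 5.49, 5.80 and 5.48 at 28 d, against 7.95, 7.19 and 6.76 at 48 h (-1.71 ± 0.42, adjusted p = 0.0313). The others were Mmp8 (collagenase, -1.59 ± 0.41, adjusted p = 0.0389) and Csf3r (the G-CSF receptor, -1.13 ± 0.29, adjusted p = 0.0368). The calls were near the threshold: 0 of the 14 were called without any of the 3 arrays at 28 d or without 48 h replicate 2, 1 without 48 h replicate 1 and 4 without 48 h replicate 3, and the model of the 6 arrays alone called 2. Without 48 h replicate 1 the median was -0.43. S100a8, an alarmin, had 4.86, 5.13 and 4.83 at 28 d, against 7.39, 6.38 and 5.90 at 48 h, and did not pass (-1.62 ± 0.45, adjusted p = 0.0599), nor did S100a9 (-1.0001 ± 0.40, 0.205).

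Saa3 and Saa4 were the genes of the acute phase list that fell. Of 25 measured, 0 rose and those 2 fell (0.898% of all genes fell), with a median of -0.21. The median was -0.31 in sham livers, which were not ligated, over the same interval. It was -0.09 in control and -0.23 in JNK1Δhepa ligated livers. Lcn2 had 12.999, 13.04 and 13.23 at 28 d, against 13.29, 13.28 and 13.27 at 48 h, near the top of the scale, and sham livers had 8.13 to 12.46. Saa2 differed by -0.67 ± 0.91 (adjusted p = 0.763), and its copies in the Saa cluster may share probes. Neither cytokine and chemokine genes (30 measured, median 0.03) nor interferon response genes (24, median 0.03) had a call in either direction. Interferon response medians were -0.63 in control and -1.02 in JNK1Δhepa ligated livers. Against JNK1Δhepa livers, 7 of the 24 had a higher and 0 a lower change (1.22% and 1.21% of all genes). Against control livers it was 1 higher and 0 lower (0.414% and 0.329% of all genes). The 7 were not recounted without the array labelled JNK1Δhepa BDL 28 d replicate 1.

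Of 19 measured genes of recruited and lipid-associated macrophages, 3 rose and 1 fell (1.94% and 0.898% of all genes). Cd9, a tetraspanin of lipid-associated macrophages, had 8.52, 8.52 and 8.81 at 28 d, against 7.67, 7.52 and 7.68 at 48 h and 6.85 to 7.13 in sham livers (0.99 ± 0.11, adjusted p = 4.85e-05). Atp6v0d2, a proton pump subunit, had 9.11, 8.96 and 9.59 at 28 d, against 6.94, 7.19 and 7.85 at 48 h (1.90 ± 0.42, adjusted p = 0.0185), and Ctsk, a cathepsin, differed by 0.98 ± 0.23 (0.0263). Chil3, a chitinase-like protein, had 5.21, 5.76 and 5.38 at 28 d, against 7.14, 7.41 and 6.31 at 48 h (-1.51 ± 0.37, adjusted p = 0.0336). Among 17 Kupffer cell genes 1 was called, the haemoglobin scavenger receptor Cd163, which fell to 6.48, 6.48 and 6.15 at 28 d, against 7.35, 7.22 and 7.35 at 48 h (-0.93 ± 0.24, adjusted p = 0.0427). Of these, the call of Cd9 held without every single array. Those of Ctsk and Chil3 were lost without 5 of the 6, of Atp6v0d2 without 4 and of Cd163 without any of the 6, with adjusted p up to 0.0933, 0.138, 0.0682 and 0.126. Clec4f, a Kupffer cell lectin, had 6.89 in 48 h replicate 1, against 9.56 and 9.84 in its groupmates and 9.29 to 10.36 at 28 d.

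Few genes of bile ducts, stellate cells and matrix passed the test, though most had higher values at 28 d: 16 of 19 bile duct genes, 16 of 22 of stellate cells and myofibroblasts and 22 of 24 collagens and associated matrix genes. Of the bile duct genes 1 rose (1.94% of all genes did). It was Prom1, a progenitor surface protein, with 7.22, 6.05 and 7.01 at 28 d, against 4.84, 4.59 and 4.88 at 48 h (1.99 ± 0.48, adjusted p = 0.0299, and up to 0.122 without single arrays, 4 of which ended the call). Krt19 (0.32 ± 0.59), Krt7 (0.63 ± 0.53), Epcam (0.03 ± 0.63) and Sox9 (-0.32 ± 0.36) were not called. The bile duct median was 0.32, or 0.55 without 28 d replicate 2 and 0.18 without 28 d replicate 3. None of the stellate cell and collagen genes were called, with medians of 0.22 and 0.30, against -0.02 over all genes. Sham livers, which were not ligated, had medians of 0.31 for bile duct, 0.22 for stellate cell and 0.04 for collagen genes over the same interval. With each array centred on its median, the JNK1-/- medians of the 3 lists were 0.19, 0.09 and 0.18, against -0.15 over all genes. The stellate cell median was 0.07 without 28 d replicate 3, 0.14 without 48 h replicate 3, 0.34 without 28 d replicate 1 and 0.37 without 48 h replicate 2. The collagen median was 0.08 without 28 d replicate 3, 0.0984 without 48 h replicate 3 and 0.46 without 28 d replicate 1. Col1a1, the main fibrillar collagen, had 7.21, 7.33 and 8.52 at 28 d, against 7.25, 7.83 and 6.64 at 48 h (0.45 ± 0.39, adjusted p = 0.61) and 5.82 to 6.29 in sham livers. Acta2, the myofibroblast actin, had 7.21, 7.12 and 8.67 at 28 d, against 6.54, 7.76 and 5.95 at 48 h (0.91 ± 0.71, adjusted p = 0.556). For both genes replicate 3 was highest at 28 d and lowest at 48 h, and the groups overlapped. Tgfb2, a profibrotic ligand, was the call among 21 TGF-beta genes, with 5.65, 5.66 and 6.19 at 28 d, against 4.27, 4.95 and 4.69 at 48 h (1.199 ± 0.29, adjusted p = 0.0313), and lost it without 5 of the 6 arrays (up to 0.107).

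Of 29 measured cell cycle genes, 0 were called in either direction, with a median of -0.32. Mki67, a marker of dividing cells, had 5.02, 4.74 and 5.69 at 28 d, against 5.32, 7.10 and 6.91 at 48 h (-1.29 ± 0.44, adjusted p = 0.12). Top2a, a topoisomerase of replication, had 4.46, 4.17 and 4.92 at 28 d, against 4.51, 5.82 and 5.85 at 48 h (-0.88 ± 0.40, adjusted p = 0.263). In both, replicate 1 at 48 h sat with the 28 d livers. Without that array, 7 of the 29 were called lower, and so were 308 of all 18820 genes.

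**Figure D4:**
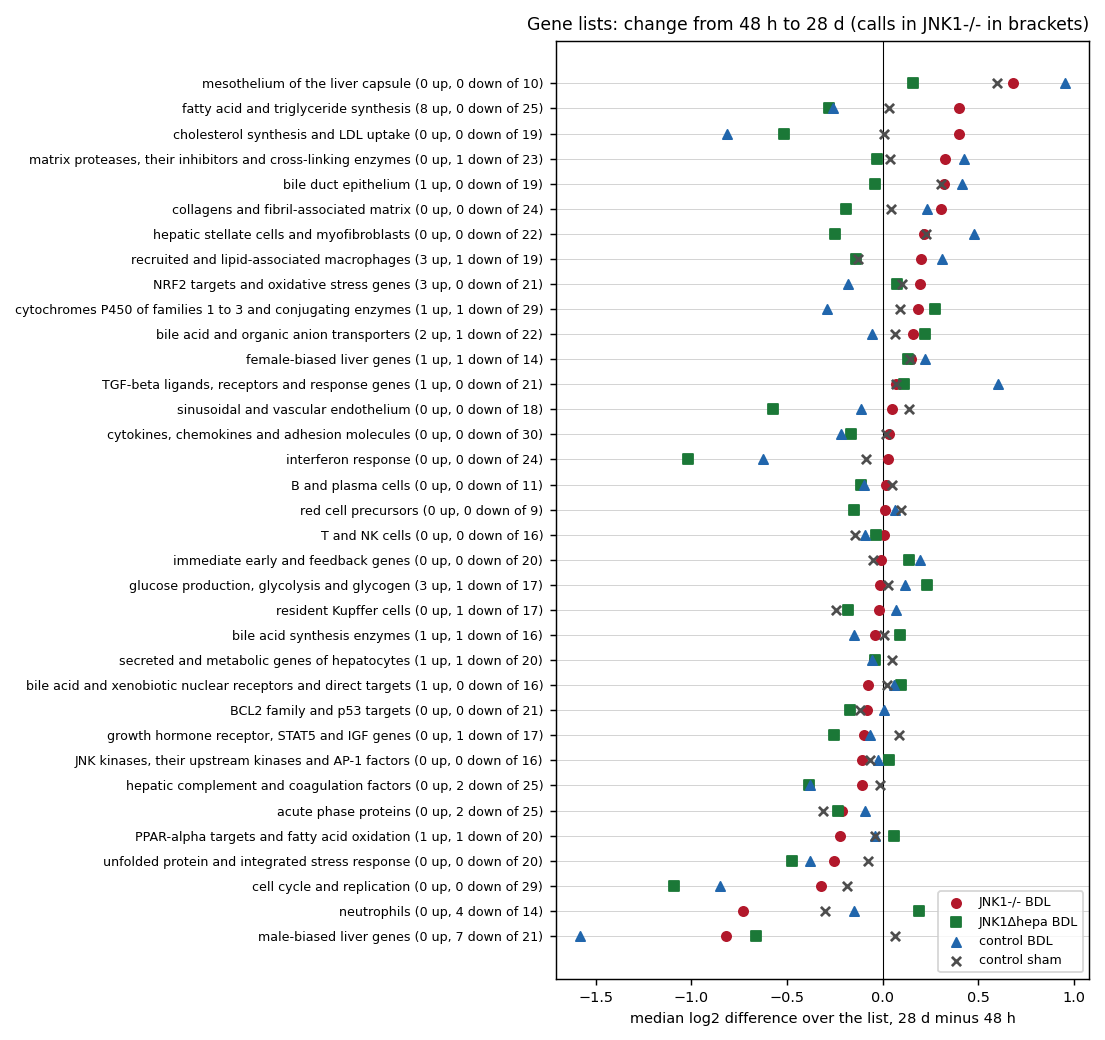
Median log2 difference between 28 d and 48 h (horizontal) over each of 35 gene lists, for JNK1-/- BDL (circles), JNK1Δhepa BDL (squares), control BDL (triangles) and control sham (crosses). The fat and cholesterol synthesis medians of 0.40 in JNK1-/- stand above 0 and those of both other ligated genotypes below it, and male-biased genes lie below 0 in all 3 ligated genotypes. The cholesterol synthesis median in JNK1-/- turned to -0.15 without 48 h replicate 1, and 0 of the 19 genes of that list were called.

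Of 17 genes of glucose and glycogen metabolism, 3 rose and 1 fell (1.94% and 0.898% of all genes), and the model of the 6 arrays alone called 2 higher. The glucose transporter Slc2a2 had 11.26, 11.24 and 11.14 at 28 d, against 9.13, 10.25 and 10.05 at 48 h (1.40 ± 0.32, adjusted p = 0.0207), and liver glycogen phosphorylase Pygl had 10.47, 10.25 and 10.57, against 9.43, 9.41 and 9.41 (1.02 ± 0.14, 0.000514). The glycolytic genes Pgk1 (0.43 ± 0.10, adjusted p = 0.0319) and Ldha (-0.45 ± 0.10, 0.0216) made up the rest. Of 21 oxidative stress genes 3 rose (1.94% of all genes did), the glutathione transferase Mgst3 (1.76 ± 0.29, adjusted p = 0.00208), the quinone reductase Nqo1 (1.66 ± 0.40, 0.0284) and Gpx4, which reduces lipid peroxides, (0.72 ± 0.18, 0.0391). Nqo1 had 8.57, 8.23 and 7.38 at 28 d, against 5.51, 7.02 and 6.68 at 48 h and 4.53 to 5.74 in sham livers. Nqo1, Gpx4 and Slc2a2 each lost the call without 3 of the arrays (up to 0.127, 0.16 and 0.0744), Ldha without 4 and Pgk1 without any of the 6 (0.104 and 0.119), while Pygl and Mgst3 kept theirs without any single array. Without 28 d replicate 1 or 2 or 48 h replicate 1, 1 of the 21 oxidative stress genes was called, and in the model of the 6 arrays alone 0 were (Mgst3 had an adjusted p of 0.104 there). Of 25 complement and coagulation genes, 0 rose and 2 fell (0.898% of all genes fell). F11, a clotting factor, fell by 1.06 ± 0.17 (adjusted p = 0.00191), and C8b, of the membrane attack complex, by 0.44 ± 0.10 (0.0248, lost without 5 of the 6 arrays).

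Of 20 genes that define hepatocytes, 1 rose and 1 fell (1.94% and 0.898% of all genes), by small steps. Hgd, of tyrosine breakdown, differed by 0.39 ± 0.08 (adjusted p = 0.0108, not called with centred arrays) and Cyp2e1 by -0.38 ± 0.09 (0.0284, up to 0.104 without single arrays), and Alb had 13.28 to 13.44 at 28 d, against 13.37 to 13.38 at 48 h. The log2 of the summed intensities of the list was 16.69 to 16.76 at 28 d, against 16.76 to 16.81 at 48 h, so the tissue marked as liver in both groups alike. Sums over 19 recruited macrophage genes were 13.07 to 13.47 and 12.84 to 13.25 in the same order, over 14 neutrophil genes 9.15 to 9.46 and 9.70 to 10.54, and over 10 mesothelial genes 12.20 to 12.52 and 10.99 to 12.58. Endothelial, T and NK cell, B and plasma cell, mesothelial and red cell lists had 0 calls. All 10 mesothelial genes had higher values at 28 d, with a median of 0.68 (1.01 without 28 d replicate 1 and 0.41 without 28 d replicate 3), against 0.16 in JNK1Δhepa, 0.95 in control and 0.5989 in sham livers. The part of cell composition in the results above was not tested.

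The same 534 genes were followed from 48 h to 28 d in the other groups. In control livers 415 (77.7%) had the same sign after ligation, where 58.8% of all genes did, 168 (31.5%) were called in the same direction and 9 in the opposite direction, and 10.4% of all genes were called there (5.11% higher and 5.31% lower at 28 d). In JNK1Δhepa livers 418 (78.3%, against 55.8% of all genes) had the same sign, 199 were called in the same direction and 13 in the opposite, and 18% of all genes were called (9.3% higher and 8.67% lower). Without the array labelled JNK1Δhepa BDL 28 d replicate 1 it was 434 (81.3%, against 58.9% of all genes), 153 and 2, with 10.2% of all genes called (5.53% higher and 4.67% lower). In sham livers 428 (80.1%, against 61.4%) had the same sign and 5 were called, where 0.133% of all genes were (0.0903% higher and 0.0425% lower). The median change of the 365 higher genes was 0.69 in JNK1-/-, against 0.31 in JNK1Δhepa, 0.25 in control and 0.13 in sham livers, and that of the 169 lower genes was -0.51, against -0.19, -0.25 and -0.13. The genes were chosen by their difference in JNK1-/- liver, so its larger medians are no finding.

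Testing the difference between changes over all genes, 140 genes (0.744%) changed otherwise in JNK1-/- than in control liver, 78 with a higher (0.414%) and 62 with a lower value (0.329%), and 47 of them were among the 534. That count rested on the arrays: it was 0 in a model of the 4 groups alone (1980 genes at an unadjusted p under 0.05), 69 without the control sham 48 h arrays, and 16 to 574 without each of the 12 arrays. It was 32 and 73 without JNK1-/- 28 d replicates 1 and 3, 48 and 81 without JNK1-/- 48 h replicates 1 and 2, 52, 442 and 574 without control BDL 28 d replicates 1, 2 and 3, and 16 and 25 without control BDL 48 h replicates 1 and 2. Car3, a carbonic anhydrase abundant in male liver, had 10.60, 8.42 and 10.05 in JNK1-/- at 28 d, against 7.07, 7.46 and 9.08 at 48 h, but 6.17, 8.00 and 9.06 in control livers at 28 d, against 12.29, 10.81 and 11.81 at 48 h. The changes of 1.82 and -3.89 differed by 5.71 ± 0.98 (adjusted p = 0.0126). Angptl4, an inhibitor of lipoprotein lipase, had 8.17, 8.87 and 9.16 in JNK1-/- at 28 d, against 10.02, 9.65 and 9.87 at 48 h, and 10.41, 9.55 and 9.20 in control, against 7.94, 7.80 and 8.84 (difference of changes -2.64 ± 0.43, adjusted p = 0.0122). Chil3 changed by -1.51 in JNK1-/- and 1.56 in control livers (-3.07 ± 0.53, adjusted p = 0.0126).

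Genes of fat metabolism were among them. Lpl changed by 2.20 in JNK1-/- and 0.63 in control livers (difference 1.57 ± 0.32, adjusted p = 0.0239), and Srebf1 by 1.72 and -0.13 (1.85, 0.0189). Gpam changed by 1.01 and -0.39 (1.40, adjusted p = 0.0385), and Cpt1a, the gate of fatty acid oxidation, by -0.53 and 0.52 (-1.04, 0.0226). Ces1g changed by 3.30 and -0.02 (3.31 ± 0.61, adjusted p = 0.02), Inmt by 2.50 and -1.02 (3.52 ± 0.68, 0.0217) and Mmd2, a progestin and adipoQ receptor family member, by 1.46 and -1.33 (2.79 ± 0.43, 0.00785). Obp2a changed by -3.61 in JNK1-/- and 0.10 in control livers (-3.70 ± 0.63, adjusted p = 0.0126), and Slc8a1 by -2.25 and 0.83 (-3.08 ± 0.43, 0.00772). Angptl4, Mmd2, Obp2a and Slc8a1 kept the call without any single array, while Car3 and Chil3 lost it without control BDL 48 h replicate 1 (adjusted p = 0.0528 for each), Ces1g without 3 of the 12 (up to 0.0577) and Inmt without 4 (up to 0.0728). Of the 25 genes of fatty acid and triglyceride synthesis, 4 had a higher change than in control livers (0.414% of all genes did): Lpl, Srebf1, Gpam and the carbohydrate-sensing factor Mlxipl (0.82, adjusted p = 0.0226). Against JNK1Δhepa livers it was 9 of the 25 (1.22% of all genes), and 4 without the array labelled JNK1Δhepa BDL 28 d replicate 1.

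**Figure D5:**
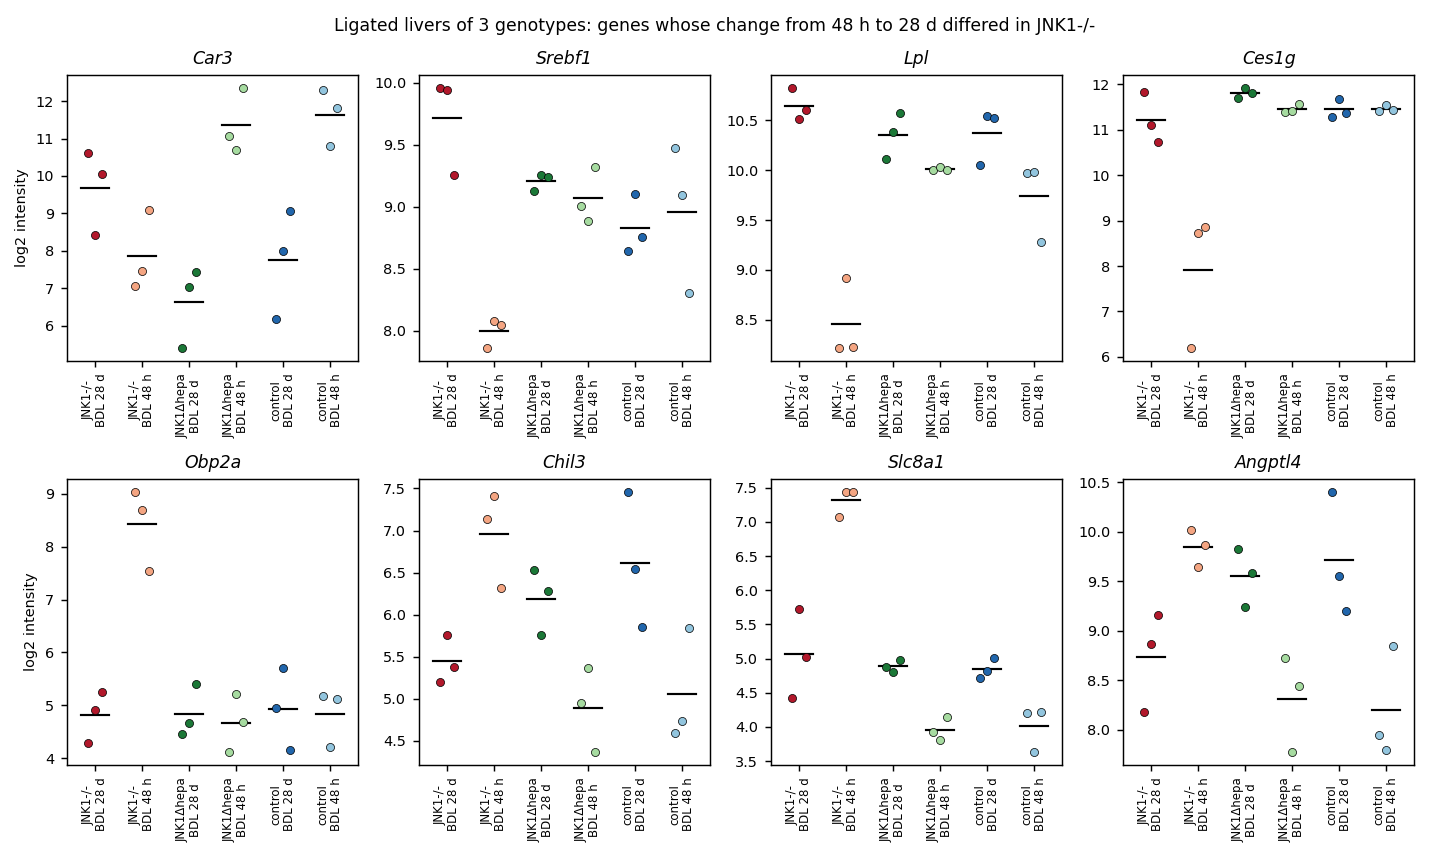
Log2 intensity (vertical) of 8 genes in each of 18 ligated livers, by genotype and time, with a line at each mean of 3. Ces1g, Lpl and Srebf1 are low and Obp2a and Slc8a1 high in JNK1-/- BDL 48 h, and the time differences of Car3, Chil3 and Angptl4 have opposite signs in JNK1-/- and in the other genotypes (in JNK1-/-, Chil3 was called and Car3 and Angptl4 were not).

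Against JNK1Δhepa liver, 457 genes (2.43%) differed in their change, 229 with a higher (1.22%) and 228 with a lower value (1.21%), but 157 and 279 with each array centred on its median. It was 70 without the array labelled JNK1Δhepa BDL 28 d replicate 1, whose Mapk8 was at the control level, and 168 without the sham 48 h arrays. It was 237 and 80 without JNK1-/- 28 d replicates 1 and 3, 227 without JNK1-/- 48 h replicate 1, 291 without JNK1Δhepa 28 d replicate 2, and 195, 201 and 126 without JNK1Δhepa 48 h replicates 1, 2 and 3. Both comparisons share the JNK1-/- arrays. Car3 again led (6.57 ± 0.98, adjusted p = 0.00505), with 5.41, 7.02 and 7.44 in JNK1Δhepa livers at 28 d, against 11.06, 10.69 and 12.36 at 48 h. Chrna4, a nicotinic receptor subunit, changed by 2.27 in JNK1-/- and -3.76 in JNK1Δhepa livers (6.03 ± 1.14, adjusted p = 0.0125). Sult1e1, the estrogen sulfotransferase, rose in JNK1Δhepa livers by 6.602 and differed by 2.06 in JNK1-/- (not called, adjusted p = 0.111), where it had 10.57, 10.68 and 8.19 at 28 d, against 7.72, 8.56 and 6.99 at 48 h. The JNK1Δhepa livers had 11.67, 11.36 and 11.46 at 28 d, against 4.59, 6.41 and 3.69 at 48 h (difference of changes -4.55 ± 0.96, adjusted p = 0.0199). Slc22a26 changed by 4.48 and -0.44 (4.92 ± 0.87, adjusted p = 0.00949). Car3, Chrna4 and Slc22a26 kept the call without any single array, and Sult1e1 lost it without 3 of 12 (up to 0.0665).

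Control sham liver gives the same difference in age without ligation, but its genotype and line differ from JNK1-/- too. Ligation and genotype therefore cannot be told apart in this comparison. Against control sham liver, 26 genes (0.138%) differed in their change, 15 with a higher (0.0797%) and 11 with a lower value (0.0584%). Slc22a27 (3.95 ± 0.41, adjusted p = 6.32e-05), Lrtm2 (2.81 ± 0.37, 0.001), H2-Q1 (2.65 ± 0.34, 0.000937) and Lpl (2.38 ± 0.32, 0.00107) rose in JNK1-/- and Mup21 (-2.91 ± 0.40, 0.00131) fell, while each stayed within 0.21 log2 units between the sham times. These 5 kept the call without any of the 12 arrays. For Cish, a feedback gene of cytokine and growth hormone signalling, the sham livers moved and the JNK1-/- livers did not pass the test: it had 6.71, 7.15 and 6.57 in JNK1-/- at 28 d, against 7.08, 7.35 and 7.06 at 48 h, but 7.79, 8.87 and 8.29 in sham livers at 28 d, against 5.6001, 5.22 and 5.22 at 48 h (-3.32 ± 0.37, adjusted p = 0.000152). The sham 48 h arrays are those with low Mapk8, and without them no comparison with sham could be fitted. The count was 15 without JNK1-/- 28 d replicate 1, 12 and 17 without JNK1-/- 48 h replicates 2 and 3, 16, 14 and 11 without sham 28 d replicates 1, 2 and 3, and 17, 7 and 10 without sham 48 h replicates 1, 2 and 3.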

How the data were processed

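Liver RNA of 24 mice was read on 24 Affymetrix arrays, 3 in each of 8 groups. The values are log2 intensities that the authors deposited after RMA, per the submitters' processing notes, with no version given. Of 35556 probe sets, 21218 had 1 gene symbol, 1881 several and 12457 none, and only the first were used. Symbols were updated by Entrez ID for 21185 and kept as given for 33. Each of 18820 genes was read from its brightest probe set, by the mean of the 24 arrays.

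One limma model (version 3.58.1, R 4.3.3) with 8 group means and 16 residual degrees of freedom gave each log2 difference, its SE and a p-value, adjusted by Benjamini-Hochberg over all genes. The threshold for a call was 0.05 on the adjusted p, and the median SE was 0.129. All tests were two-sided, and the script was tested on simulated data. The labels give replicate numbers only, so p-values measure the spread between these samples. The number of arrays limits the precision.

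The members and the 35 gene lists (668 of 744 written genes measured) were chosen with earlier results of these data known. Named genes were the 14 with the largest difference in each direction among calls with both groups of arrays fully apart, 6 in each direction for each difference of changes, and from each list described the first 4 genes and up to 6 with the smallest p. Predicted genes, Riken clones, olfactory, vomeronasal and taste receptors, immunoglobulin and T cell receptor segments and pseudogenes were left out. Alternatives were quantile normalization, median centring, probe set choice, a filter on dim genes, array weights, a robust variance trend, a replicate block, smaller models and leaving out arrays.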

Additional observations from a re-analysis of the deposited data

Results flagged for a closer look

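Listed here are genes named by the size of their difference, between the times or in the comparison at hand. For each, the change between 48 h and 28 d in JNK1-/- liver differed from that in another group, by the limma test of the difference itself. Genes named only from the gene lists, such as Srebf1, Gpam, Cpt1a and Mlxipl, are given above and not repeated. Values are differences of log2 changes, JNK1-/- minus the other group, and a positive one means a higher change in JNK1-/-.

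Against control BDL livers the higher changes were those of Car3 (5.71), Inmt (3.52), Ces1g (3.31), Clec2h (3.18), Sytl5 (2.86), Mmd2 (2.79), H2-Q1 (2.002) and Lpl (1.57). The lower changes were those of Obp2a (-3.70), Slc10a6 (-3.37), Slc8a1 (-3.08), Chil3 (-3.07), Nrg4 (-2.91) and Angptl4 (-2.64). Their adjusted p ran from 0.00772 for Slc8a1 to 0.0332 for Nrg4, and no gene was called in a model of the 4 groups alone.

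Against JNK1Δhepa BDL livers the higher changes were those of Car3 (6.57), Chrna4 (6.03), Sprr1a (4.93), Slc22a26 (4.92), Gask1a (3.98), Aqp8 (3.85), Thrsp (3.57), Sytl5 (3.30), Inmt (3.02), Ces1g (2.94), H2-Q1 (2.35), Adam11 (2.07) and Lpl (1.85). The lower changes were those of Sult1e1 (-4.55), Obp2a (-3.78), Phf11c (-3.60), Setdb2 (-3.54), Ciart (-3.37), Slc8a1 (-3.18) and Asic5 (-1.999). Their adjusted p ran from 0.00505 for Car3 to 0.0441 for Ciart and Phf11c. Without the array labelled JNK1Δhepa BDL 28 d replicate 1, 12 of these 20 lost the call (adjusted p = 0.066 to 0.137), and Car3, Chrna4, Slc22a26, Sytl5, H2-Q1, Lpl, Obp2a and Slc8a1 kept it. Ciart lost it without 10, Phf11c without 8 and Setdb2 without 7 of the 12 arrays.

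Against control sham livers the higher changes were those of Slc22a26 (4.61), Slc22a27 (3.95), Ces1g (3.24), Lrtm2 (2.81), H2-Q1 (2.65) and Lpl (2.38). The lower changes were those of Cish (-3.32), Slco1a1 (-3.28), Mup21 (-2.91), Mup6 (-2.82), Foxq1 (-1.92) and Hhex (-1.23). Slco1a1 and Mup6 were nearest the threshold (adjusted p = 0.0477 for each) and lost the call without 11 of the 12 arrays. Slc22a26 lost it without 10 (adjusted p up to 0.119), Ces1g without 8 (up to 0.118), and Foxq1 and Hhex without 6 each (up to 0.0631 and 0.0856).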

How the results depend on the processing

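No called value of a named gene changed sign under any alternative run (0 of 1814), while 124 of 3774 values of genes not called did, and 17 of the 28 leading genes kept their call in all of them. The number of genes called between 28 d and 48 h in JNK1-/- liver was 495 to 666 under quantile normalization, median centring, other choices of probe set, the filter on dim genes and the robust trend. It moved to 98 with only the 6 arrays and to 2554 with array weights, and ran from 227 to 659 without each array in turn. The difference from control livers gave 140 genes, against 0 with only the 4 groups, 69 without the sham 48 h arrays, 243 among genes at or above the median level, 614 with array weights and 16 to 574 without each array. The difference from JNK1Δhepa livers gave 457, against 815 with only the 4 groups, 168 without the sham 48 h arrays, 70 without the array labelled JNK1Δhepa 28 d replicate 1, 720 among genes at or above the median level, 1693 with array weights and 70 to 458 without each array. The difference from sham livers gave 26, against 61 with only the 4 groups, 231 with array weights and 7 to 25 without each array. The cause of these shifts was not tested, beyond the fewer samples or genes in some of the models.

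The replicate numbers did not pair the JNK1-/- samples: deviations of same-numbered arrays correlated at -0.047, -0.058 and -0.149, and none correlated best with its own number. A fit with the replicate block called 554 genes, against 160, 716 and 25 for the differences from control, JNK1Δhepa and sham livers. The table holds no background or detection values, so the limit that signal over background sets was not measured.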
